A study of Homo sapiens with 8 samples.

Results

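The response of lung squamous cell carcinoma cells to miR-150-3p was compared, gene by gene, with the response of small cell lung cancer cells to siRNAs against DONSON. Both are responses to a transfected small RNA duplex, measured against control RNA of the same cell line. The comparison used 5 of the 8 arrays in the series: 2 of miR-150-3p (1 array for EBC-1 and 1 for SK-MES-1) and 3 of siDONSON-1, siDONSON-2 and siDONSON-3 in SBC-3 cells. The other 3 arrays, of A549 lung adenocarcinoma cells with LOXL2 edited by CRISPR/Cas9, are labelled with the editing and no duplex and are given only as a reference. For each gene the mean log2 ratio of the siDONSON arrays was subtracted from that of the miR-150-3p arrays. Probes had to be well above background in at least 1 channel on all 5 arrays, which left 13006 of 22439 named genes, and every gene that passed is a member.

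EBC-1 and SK-MES-1 are lung squamous cell carcinoma lines, and SBC-3 is a line of small cell lung cancer. Transfections used Lipofectamine RNAiMAX. The control of every transfection is labelled both mock and not transfected, so whether control cells met the reagent is unknown. Treated RNA carried Cy5 and control RNA carried Cy3 on every array, with no dye swap, and all arrays lay on 1 slide. A log2 ratio below 0 therefore means less of a transcript in treated than in control cells, and a difference below 0 means that the miR-150-3p value is the lower of both. Each squamous line has 1 array, and the 3 siRNAs were each used once. Cell line and duplex cannot be told apart in this design, because no line received both.

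The 3 siDONSON arrays may also share a control. Their Cy3 signals differed between arrays by an SD of 0.141 to 0.150 on the log2 scale over 10815 genes measured in both channels, against 0.371 to 0.495 for Cy5. If 1 control RNA served all of them, anything peculiar to it enters all 3 ratios alike, and the tests leave out its own spread.

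In the control channel, the defining markers were found in part. EBC-1 had 2 of 11 squamous markers above background, SOX2 and S100A2, and the basal keratins KRT5 and KRT6A and the squamous factor TP63 were not well above background. SK-MES-1 had 7 of 11, again without KRT5, and it carried a log2 Cy3 signal of 17.1 for UCHL1, a marker often used for neuroendocrine cells. SBC-3 had 5 of 11 neuroendocrine markers on each array (NEUROD1, CHGA, CHGB, SYP and DLL3), while INSM1 was not well above background. SBC-3 also had 4 or 5 of the 11 squamous markers, with SOX2 at 14.1 to 14.2. The part of these marker levels in the results was not tested.

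A microRNA such as miR-150-3p, the passenger strand of its precursor, guides Argonaute proteins to many partly matching transcripts. An siRNA is designed for 1 perfectly matching transcript but can also act on others through its seed. Long double-stranded RNA can be sensed by the cell and can switch on interferon-stimulated genes. DONSON is a replication factor that helps to load the replicative helicase, and HELLS is a chromatin remodeller of replicating cells.

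On the siDONSON arrays DONSON itself had log2 ratios of -2.15, -1.79 and -2.11. After miR-150-3p its values were -1.02 (EBC-1) and -0.22 (SK-MES-1). The lowest values were those of the siRNAs that target it, and the groups did not overlap. The difference was 1.40 (SE 0.28), which did not pass the threshold in limma (adjusted p = 0.166). HELLS, a candidate target of the study, had values of -1.87 (EBC-1) and -0.14 (SK-MES-1) against -0.24, 0.15 and -0.50 on the siDONSON arrays. Only EBC-1 stood apart from the siRNA arrays for HELLS, and the groups overlapped.

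Over all 13006 genes, the limma test on the 5 arrays (Benjamini-Hochberg adjusted p under 0.05) called 0 genes lower after miR-150-3p (0%) and 2 genes higher (0.0154%). At an unadjusted p under 0.05 there were 974 lower and 827 higher genes. The fit has 3 residual degrees of freedom, and an exact permutation test of 2 against 3 arrays cannot go below a two-sided p of 0.2. A larger number of genes did not overlap between the groups: 2314 genes (17.8%) had both miR-150-3p values below all siDONSON values, and 2035 (15.6%) had both above. When the LOXL2-edited arrays were added to the fit to estimate the spread, the same differences gave 215 lower genes (1.65%) and 154 higher genes (1.18%). That larger fit assumes that edited A549 clones vary as transfected cells do, which was not tested. Median ratios of S phase genes were -0.11, -0.07 and -0.09 in the clones and -0.18, 0.12 and -0.27 on the siDONSON arrays. Single genes could go the other way, as SLC7A7 had -1.54, 0.64 and 1.04 in the clones against -1.28, -1.37 and -2.18. If the clones vary less, adjusted p from the larger fit, here and below, are too small and its calls too many.

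Both called genes were higher after miR-150-3p. CDH15, a cadherin of muscle, had log2 ratios of 0.53 (EBC-1), 0.45 (SK-MES-1) and -2.07, -2.38 and -2.02 on the siDONSON arrays. It lay near 0.5 in the squamous lines and far below 0 in all SBC-3 arrays (difference 2.65, SE 0.20, limma adjusted p = 0.048). The log2 Cy3 signal of CDH15 in control cells was 5.35 and 5.52 for the squamous lines, against 10.02, 9.96 and 10.13 for SBC-3. After treatment its log2 Cy5 signal was 5.88 and 5.97, against 7.94, 7.58 and 8.11. CDH15 thus started far lower in the squamous lines, and the part of this gap in the difference was not tested. SLC15A3, a lysosomal transporter of peptides and histidine, had values of 1.68 and 1.73 after miR-150-3p and -0.68, -1.15 and -1.08 after siDONSON (difference 2.67, SE 0.22, limma adjusted p = 0.048). For SLC15A3 the groups lay on opposite sides of 0. The control channel was not well above background in EBC-1 for CDH15 and in SK-MES-1 for SLC15A3, so those 2 ratios rest on a dim denominator. With normexp background correction the differences were 1.35 for CDH15, which kept its call, and 0.77 for SLC15A3, which lost it. Both calls were kept without the SK-MES-1 array and lost when any other of the 5 arrays was left out.

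Correlations between the responses were low. Across the 13006 genes, Pearson's r between a miR-150-3p array and a siDONSON array was 0.06 to 0.17, and between a miR-150-3p array and a LOXL2-edited array it was 0.17 to 0.22. Within the groups r was 0.48 between the miR-150-3p arrays and 0.21 to 0.49 between siDONSON arrays. These values describe arrays that share a slide and a dye orientation, over genes that are not independent. No gene (0) lay below -1 on all 5 arrays, and 1 gene lay above 1 on all 5. That gene was IQCN, with 1.99, 1.55, 1.68, 1.61 and 1.19, and its values on the LOXL2-edited arrays were 0.33, 0.42 and 0.27. IQCN was thus above 1 after every duplex and under 0.5 in every edited clone. Below 0 on all 5 arrays were 1056 genes (8.12%), and above 0 were 1492 (11.5%).

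**Figure D1:**
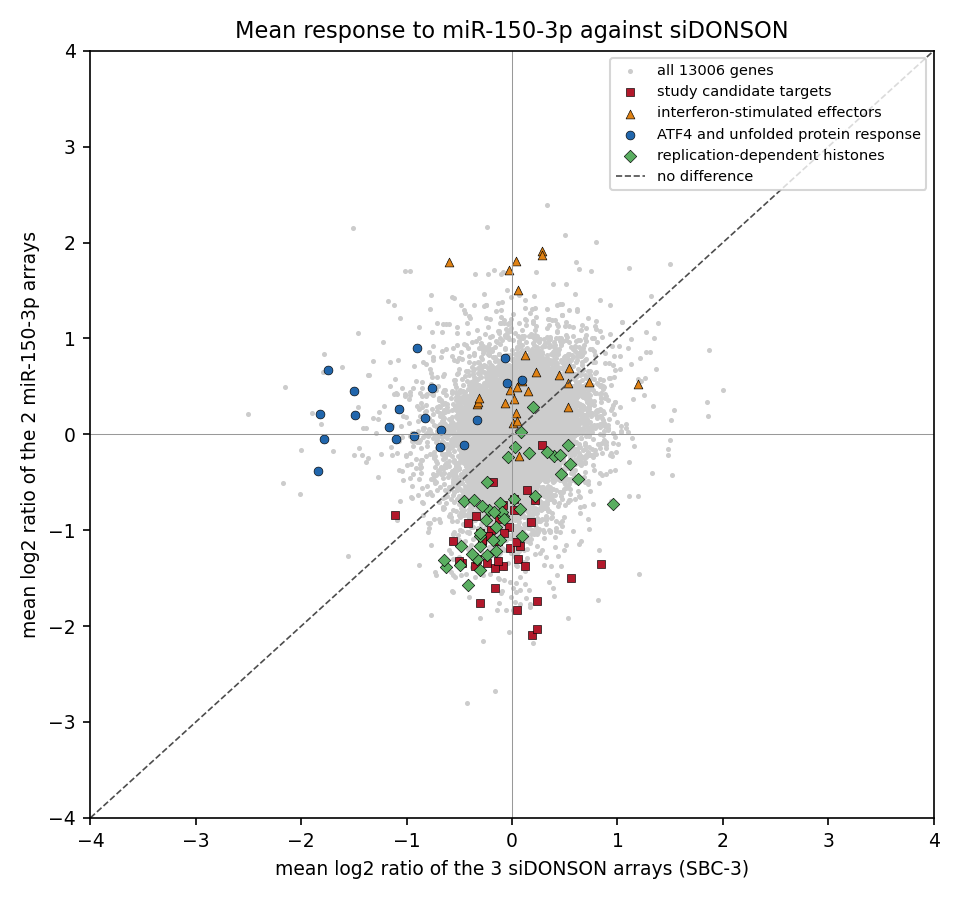
Mean log2 ratio (treated over control) of the 3 siDONSON arrays on the x axis against that of the 2 miR-150-3p arrays on the y axis, for 13006 genes; coloured symbols are members of 4 gene lists and the dashed line is equality. The study's candidate targets and the histones spread downwards, the interferon-stimulated effectors upwards, and the unfolded protein response genes to the left, where siDONSON values are low.

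Large differences came from both sides. Of 330 genes with a difference below -1, 272 did not overlap, and in 219 of these the miR-150-3p mean was the farther from 0. Of 287 genes with a difference above 1, 242 did not overlap. The miR-150-3p mean was the farther from 0 in 148 of them and the siDONSON mean in 94. Among the 154 genes called higher on all 8 arrays the order was the opposite, with the siDONSON mean the farther in 87 and the miR-150-3p mean in 67. The squamous lines did not contribute alike, as 780 of all genes lay below -1 for EBC-1 and 87 for SK-MES-1. Below -1 on both miR-150-3p arrays lay 49 genes, and 26 of these were within 0.5 of 0 on all siDONSON arrays. Below -1 on all siDONSON arrays lay 27 genes. Of those 27, 9 were within 0.5 of 0 on both miR-150-3p arrays: CRELD2, DNAJB11, HSP90B1, MANF, PDIA4, SDF2L1, KRT19, LAPTM5 and TNNI2. The first 6 of these names encode proteins that work in the endoplasmic reticulum. This set of 9 was looked at after its values were seen.

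Several genes of the endoplasmic reticulum had low values on the siDONSON arrays, although none passed the threshold on 5 arrays. When unfolded proteins build up in the reticulum, the sensors IRE1, PERK and ATF6 raise chaperones such as HSPA5, the folding enzymes and the degradation machinery. PERK acts through the translation factor eIF2 and ATF4, which also answers to a lack of amino acids. ATF6 and XBP1 act on promoters through the endoplasmic reticulum stress element, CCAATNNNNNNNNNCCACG.

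HSPA5, the main chaperone of the reticulum, had log2 ratios of 0.85 (EBC-1) and 0.48 (SK-MES-1), and of -1.51, -1.76 and -1.97 on the siDONSON arrays. Every miR-150-3p value lay above 0 and every siDONSON value below -1.5, with the LOXL2-edited arrays between them at -0.03, -0.18 and -0.19. The difference was 2.41 (SE 0.23), just short of the threshold in limma (adjusted p = 0.0597, and 0.00464 with all 8 arrays). MANF, a secreted protein that binds HSPA5, had values of 0.40 and 0.03 after miR-150-3p against -1.70, -1.94 and -1.83. Here the squamous values were close to 0, and the siDONSON values alone departed from it (difference 2.04, SE 0.21, limma adjusted p = 0.0597).

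CRELD2, which is also induced by reticulum stress, had values of 0.37 and 0.03 against -1.49, -1.43 and -1.55. The disulfide isomerase PDIA4 had 0.12 and -0.22 against -1.90, -1.65 and -1.81. CALR, the calcium-binding chaperone calreticulin, had 0.56 and 0.27 against -1.03, -1.17 and -1.17. All these genes showed tight siDONSON values. They were picked among genes without overlap between the groups. DNAJB11, a co-chaperone of HSPA5, had 0.19 and -0.06 against -1.41, -1.37 and -1.47. For CRELD2, PDIA4, CALR and DNAJB11 the limma adjusted p was 0.0929 on 5 arrays and 0.00464 on 8.

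The list of ATF4 and unfolded protein response genes had 20 of 20 members measured. The difference was above 0 in 20 of 20, with a median of 1.15 against -0.02 over all genes. None (0) passed the threshold on 5 arrays and 6 did with all 8, against 1.18% of all genes. In 9 of them the miR-150-3p values lay above all siDONSON values, 45% against the 15.6% of all genes, and in 0 below. The median ratio of the list was 0.13 for EBC-1 and 0.17 for SK-MES-1, against -1.50, -0.31 and -1.17 on siDONSON-1, -2 and -3. On siDONSON-2 the list thus lay nearer to 0 than on the others. Without siDONSON-2 the median difference was 1.48, and without siDONSON-1 it was 0.84.

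The list fell into a pair of groups on siDONSON-2, a split made after the values were seen. For the 9 genes of the reticulum (HSPA5, HERPUD1, DNAJB9, XBP1, SDF2L1, PDIA4, HYOU1, CRELD2 and MANF), the medians were -1.51, -1.43 and -1.81 on siDONSON-1, -2 and -3, and 8 of 9 lay below 0 on siDONSON-2. For ATF4 and its targets (11 genes) the medians were -0.93, 0.23 and -0.76, and 7 of 11 lay above 0 on siDONSON-2. On the LOXL2-edited arrays the medians were -0.56, -0.69 and -0.65 for ATF4 and its targets and -0.03, 0.02 and -0.07 for the reticulum genes. Low values of ATF4 and its targets were thus not particular to the siDONSON arrays. The asparagine synthetase gene ASNS, a classic ATF4 target, had -1.88 and -1.94 on siDONSON-1 and -3 but 0.60 on siDONSON-2, with 0.13 and 0.40 after miR-150-3p. The cystine transporter gene SLC7A11 had -2.53 and -1.23 against 1.05, and TRIB3, an inhibitor of AKT, had -2.12 and -1.81 against 0.43. For these ATF4 targets siDONSON-2 lay among or above the miR-150-3p arrays, and the groups overlapped. HERPUD1, of the degradation machinery, and XBP1 also differed, with -0.57 and -0.01 on siDONSON-2 against -1.16 or lower on the others.

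**Figure D2:**
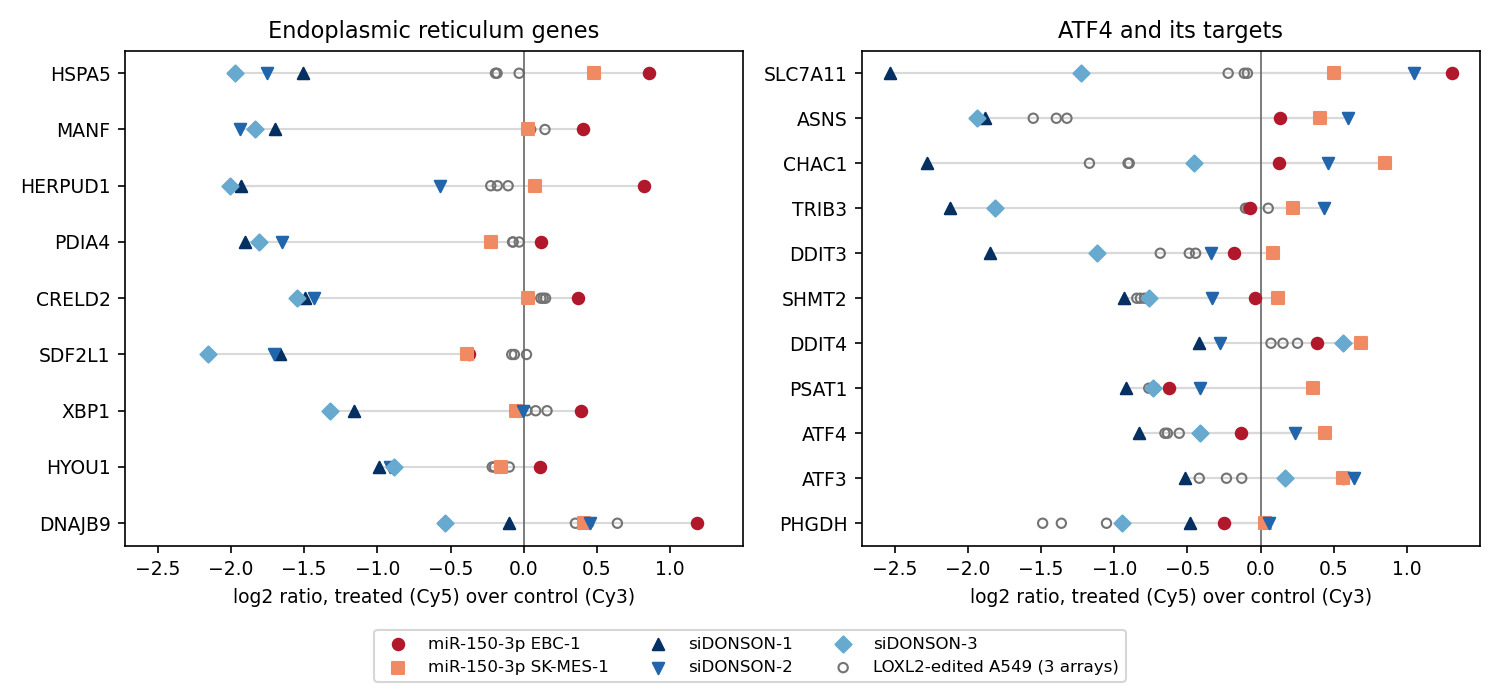
Log2 ratios (treated over control, x axis) of 20 genes (rows) on each array, with the 9 endoplasmic reticulum genes on the left and ATF4 with its targets on the right; filled symbols are the 5 duplex arrays and open circles the LOXL2-edited arrays. For HSPA5, MANF, PDIA4, CRELD2 and SDF2L1 all siDONSON symbols lie left of -1, while for most genes on the right siDONSON-2 lies near the miR-150-3p symbols.

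The levels behind these ratios differed between the lines before any treatment. HSPA5 had a log2 Cy3 signal of 11.09 in control cells of EBC-1, 10.53 in those of SK-MES-1 and 12.92 to 13.04 in those of SBC-3. After treatment the Cy5 signals were 11.94 and 11.02 in the squamous lines and 11.53, 11.16 and 11 in SBC-3. HSPA5 was therefore higher in SBC-3 before treatment, and after it the lines overlapped. The control level was lower in the squamous lines for 8 of the 9 reticulum genes (median difference -0.89 on the log2 Cy3 scale, against 0.02 for all genes), and the treated level was higher in 8 of the 9 (0.76 on the Cy5 scale). The part of these starting levels in the result was not tested. Over all genes, the difference in control level and the difference in ratio had a Pearson's r of -0.19, a description only, since both use the same Cy3 signals.

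Promoters were searched for the stress element, which picks genes by sequence but can return genes already described by their values. RefSeq windows (GRCh38.p14) from 250 bases before to 50 bases after the start were used, on both strands, and 27 of 35116 windows held a match (0.0769%). The stretches below come from genes of the reticulum with large differences, read 5′ to 3′ on the strand of the gene. Capitals mark the match, and in CALR, CRELD2 and the second match of HSP90B1 it runs on the opposite strand.
HSPA5, chr9:125241379-125241421, minus strand: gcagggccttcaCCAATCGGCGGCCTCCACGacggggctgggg
CALR, chr19:12938372-12938414, plus strand: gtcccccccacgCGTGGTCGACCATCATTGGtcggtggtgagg
CRELD2, chr22:49918542-49918584, plus strand: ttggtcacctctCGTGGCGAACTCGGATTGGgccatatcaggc
PDIA6, chr2:10812841-10812883, minus strand: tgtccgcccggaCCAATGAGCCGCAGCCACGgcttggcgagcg
XBP1, chr22:28800591-28800633, minus strand: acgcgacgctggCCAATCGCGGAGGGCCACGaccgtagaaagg
HSP90B1, chr12:103930204-103930351, plus strand: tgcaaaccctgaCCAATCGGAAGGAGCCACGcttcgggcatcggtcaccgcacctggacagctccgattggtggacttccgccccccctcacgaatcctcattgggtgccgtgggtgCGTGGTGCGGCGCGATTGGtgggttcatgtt

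A match was found for 15 of the 10221 measured genes that have a window. In 13 of the 15 the difference was above 0, as in 6237 of all 13006 genes. In 11 of the 15 (73.3%) both miR-150-3p values lay above all siDONSON values, against 15.6% of all genes. Besides HSPA5, CALR and CRELD2, these 11 were ALG12, CANX, EIF2A, HSP90B1, PDIA6, SERP1, SYNPO and TRIM5. HSP90B1, the HSP90 of the reticulum, had values of 0.19 and 0.00 against -1.17, -1.15 and -1.11 (difference 1.23, SE 0.19, limma adjusted p = 0.109). The disulfide isomerase gene PDIA6 had 0.32 and 0.15 against -0.69, -0.72 and -1.08. The chaperone gene CANX had 0.10 and -0.03 against -0.52, -1.43 and -0.72. SERP1, which stabilises proteins at the translocon, had 0.58 and 0.63 against -0.03, -0.15 and -0.49, so for this gene the squamous side was the farther from 0. TMEM120A and ZNF17 had a match and differences of -0.17 and -0.07. MANF, PDIA4 and DNAJB11 had no match to these letters in the window. The search was chosen after the list's values were known, and a match is not a site shown to act. HSPA5, CALR, CRELD2, XBP1 and HSP90B1 had a match and were already described above by their values. PDIA6 and CANX were also picked after their values were seen. The share of matched genes without overlap is therefore not independent of the genes that prompted the search.

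**Figure D3:**
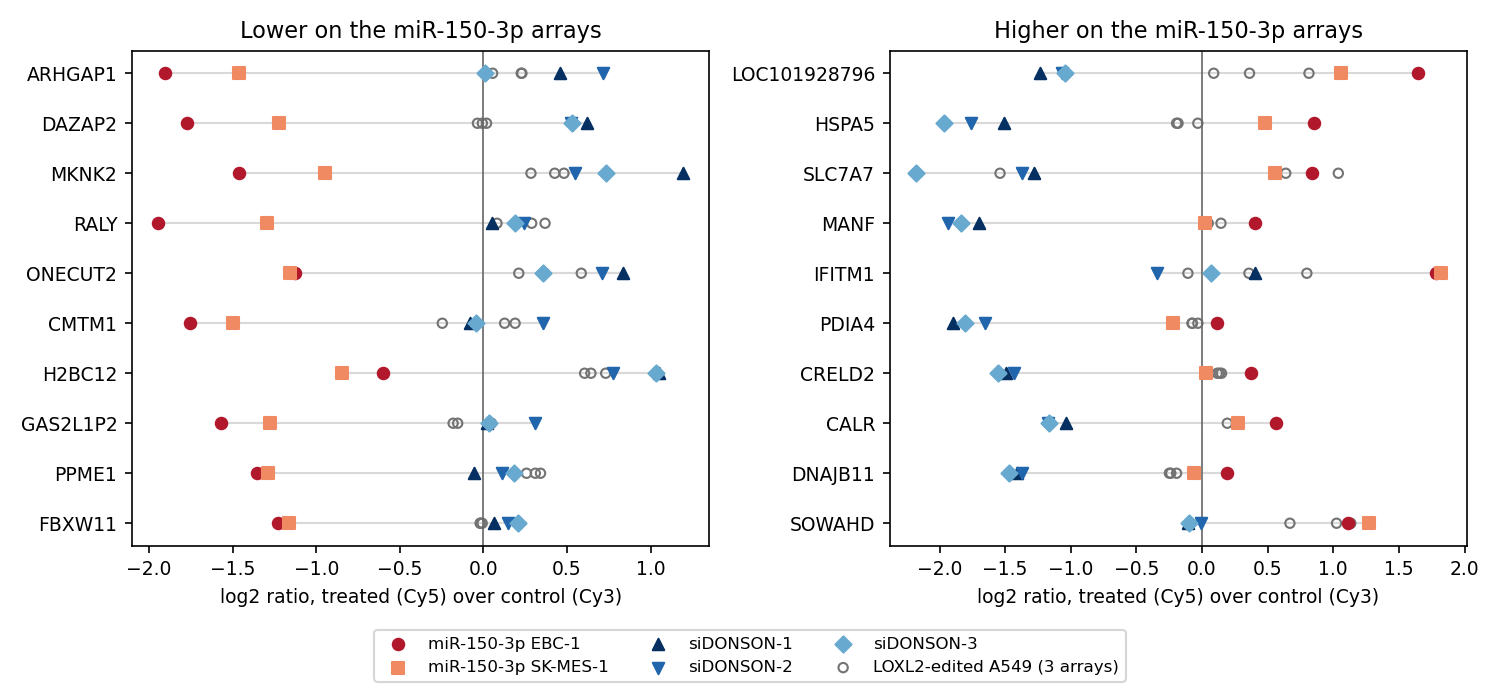
Log2 ratios (treated over control, x axis) on each array for the 10 lower and the 10 higher genes (rows) of smallest unadjusted p without overlap between the groups; filled symbols are the 5 duplex arrays and open circles the LOXL2-edited arrays. On the left the miR-150-3p values lie between -1.94 and -0.60, and on the right 6 of 10 genes work in the endoplasmic reticulum and have siDONSON values below -1.

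Among genes lower after miR-150-3p, no gene passed the threshold on 5 arrays, and the 10 of smallest p without overlap are given here. DAZAP2, a small proline-rich protein, had log2 ratios of -1.78 (EBC-1) and -1.23 (SK-MES-1), and of 0.62, 0.52 and 0.53 on the siDONSON arrays. Its LOXL2-edited values were 0.02, -0.04 and -0.01. The difference was -2.06 (SE 0.23, limma adjusted p = 0.077, and 0.00464 with all 8 arrays), and without the filter on dim probes it was -0.92. DAZAP2 is 1 of the study's candidates, which were chosen with the EBC-1 array in use. By the rule that picked this set, its other genes were also lower in both squamous lines than on any siRNA array.

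ARHGAP1, a GTPase-activating protein, had values of -1.90 and -1.46 against 0.46, 0.71 and 0.01. RALY, an RNA-binding protein, had -1.94 and -1.29 against 0.05, 0.24 and 0.19. For both genes the siDONSON values were near or above 0. The transcription factor gene ONECUT2 had -1.13 and -1.15 against 0.84, 0.71 and 0.35, with nearly equal values in both squamous lines. MKNK2, a kinase of the cap-binding factor eIF4E, had -1.46 and -0.95 against 1.19, 0.55 and 0.74. In ONECUT2 and MKNK2 the groups lay on opposite sides of 0. FBXW11, a substrate receptor of a ubiquitin ligase, had -1.23 and -1.16 against 0.06, 0.15 and 0.20, and PPME1, a methylesterase of protein phosphatase 2A, had -1.36 and -1.29 against -0.06, 0.11 and 0.18. For these genes the siDONSON side was close to 0 on every array. CMTM1 and the pseudogene GAS2L1P2 behaved alike, with miR-150-3p values between -1.76 and -1.27 and siDONSON values between -0.08 and 0.36. The limma adjusted p was 0.0929 for all these genes on 5 arrays and between 0.00464 and 0.0111 on 8. Under the alternatives run, the difference nearest 0 was -0.55 for RALY, -0.54 for ONECUT2, -0.63 for CMTM1, -0.78 for PPME1 and -0.85 for GAS2L1P2. In the fit on 5 arrays these differences lay between -1.78 (RALY) and -1.40 (PPME1). For ARHGAP1, MKNK2 and FBXW11 the difference nearest 0 was -1.855, -1.598 and -1.204.

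Among the 10 genes on the other side that do not work in the reticulum, LOC101928796, an uncharacterised locus, had 1.65 and 1.06 against -1.24, -1.07 and -1.05. It was above 1 in both squamous lines and below -1 on every siDONSON array (difference 2.47, SE 0.24, limma adjusted p = 0.0597). SLC7A7, a subunit of an amino acid transporter, had 0.84 and 0.56 against -1.28, -1.37 and -2.18, and its LOXL2-edited values of -1.54, 0.64 and 1.04 did not agree in sign. SOWAHD had 1.11 and 1.27 against -0.11, -0.01 and -0.10, with 0.67, 1.13 and 1.02 on the LOXL2-edited arrays. For SOWAHD the siDONSON arrays, and not the miR-150-3p arrays, were the ones that differed from the edited clones. The differences were 2.31 for SLC7A7 and 1.27 for SOWAHD. Under the alternatives run, the smallest differences were 1.16 for LOC101928796, 0.49 for SLC7A7 and 0.50 for SOWAHD.

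The study's candidate targets of miR-150-3p were 49 genes, of which 42 were measured. Their difference was below 0 in 41 of 42, with a median of -0.96, and 23 (54.8%) lay below all siDONSON values without overlap, against 17.8% of all genes. None (0) passed on 5 arrays and 7 did with all 8 arrays, against 1.65% of all genes. The median ratio was -1.86 in EBC-1, -0.40 in SK-MES-1 and -0.14, -0.04 and -0.14 on the siDONSON arrays. EBC-1 held the low values, and without EBC-1 the median difference was -0.31. As the study chose these genes with that array, this count is not independent evidence of their direction.

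Beside DAZAP2, the candidates of smallest p were NETO2, FAM162A and CAMK2N2. NETO2, an auxiliary subunit of kainate receptors, had -1.85 and -0.86 against 0.87, 0.91 and 0.74. The LOXL2-edited arrays were below 0 for NETO2 too, at -0.75, -0.76 and -0.81. FAM162A, a mitochondrial protein induced by hypoxia, had -1.87 and -1.60 against -0.16, 0.21 and 0.65. CAMK2N2, an inhibitor of the kinase CaMKII, had -2.37 and -1.81 against -0.07, 0.95 and -0.32. In each of the 3 genes both squamous lines were below every siRNA array, with limma adjusted p of 0.0929, 0.0929 and 0.141 on 5 arrays and 0.011, 0.011 and 0.0255 on 8. TNS4, a focal adhesion protein, was the exception among the 42, with -1.05 and -0.63 against -1.20, -1.30 and -0.83.

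Cell cycle genes had their lowest values in EBC-1. S phase genes (43 of 43 measured) had a median of -1.93 for EBC-1 but -0.21 for SK-MES-1, and of -0.18, 0.12 and -0.27 on the siDONSON arrays. SK-MES-1 lay within the range of the siDONSON arrays. The median difference was -0.85, and -0.07 without EBC-1. Without overlap 12 (27.9%) lay below and 0 above, against 17.8% and 15.6% of all genes, and none (0) was called in either fit. UHRF1, which keeps DNA methylation through replication, had -2.82 and -1.02 against -0.18, -0.47 and -0.27. PCNA, the sliding clamp of replication, had -2.54 and -0.43 against -0.02, 0.12 and 0.12. The repair enzyme gene UNG had -1.74 and -0.29 against 0.09, 0.50 and 0.00, and GINS2, a subunit of the helicase, had -2.79 and -0.50 against -0.07, 0.45 and -0.27. SK-MES-1 was lower than every siDONSON array in each of these genes, but closer to them than to EBC-1. Promoters of 15 of 32 S phase genes with a window held an E2F site (TTTCCCGC or TTTGGCGC, both strands), against 4.43% of measured genes with a window and 2.27% of all windows.

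Over the 453 measured genes with an E2F site the median difference was -0.11, and 21.9% lay below all siDONSON values against 17.8% of all genes. G2/M genes (52 of 54 measured) had medians of -1.49, -0.08, 0.02, -0.41 and -0.01 in the same order of arrays, and 6 (11.5%) lay below without overlap, which is under the background. Their median difference of -0.65 became 0.04 without EBC-1. Cyclin E, E2F and RB genes (27 of 28) had a median difference of -0.29, and of -0.18 without EBC-1. Of these 9 (33.3%) lay below and 1 (3.7%) above, against 17.8% and 15.6% of all genes, and the reference genes described further on had the same 33.3% below. CDKN1B, an inhibitor of cyclin-dependent kinases, had 0.71 and 0.62 against 0.04, -0.01 and -0.22, while CDK2, the kinase it inhibits, had -1.13 and -0.71 against -0.14, 0.31 and -0.28. CDKN1B was the 1 member of the list above all siDONSON values, and with all 8 arrays it passed the threshold (limma adjusted p = 0.0418). The LOXL2-edited arrays had 0.54, 0.64 and 0.41 for CDKN1B and -1.11, -0.84 and -0.88 for CDK2. Both genes thus had the same direction in the edited clones as on the miR-150-3p arrays. E2F2 had -2.87 and -0.80 against -0.24, 0.82 and -0.43, with 0.12, 0.05 and 0.18 on the LOXL2-edited arrays.

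Replication-dependent histones (44 of 49 measured) had a median difference of -0.74, and of -0.14 without EBC-1. Of these 13 (29.5%) lay below all siDONSON values, against 17.8% of all genes, and 0 above. None (0) passed on 5 arrays and 6 of 44 did with 8, against 1.65% of all genes. The members that did not overlap were mostly H2B genes, a split made after the values were seen: 10 of 11 H2B genes (90.9%) and 3 of 33 others (9.09%), the latter under the 17.8% of all genes. H2BC12 had -0.60 and -0.85 against 1.05, 0.78 and 1.03, with the LOXL2-edited arrays at 0.73, 0.64 and 0.61 (difference -1.68, SE 0.20, limma adjusted p = 0.0929 on 5 arrays and 0.00464 on 8). H2BC14 had -0.61 and -0.32 against 0.66, 0.53 and 0.69, and H2BC10 had -0.31 and -0.31 against 0.57, 0.45 and 0.63. H2BC4 had -0.55 and -0.27 against 0.35, 0.45 and 0.59. In each of these H2B genes the squamous values were below 0 and the siDONSON values above it. The LOXL2-edited values were above 0 in each of them too, with medians over the measured H2B genes of 0.22, 0.20 and 0.23. Values above 0 were thus not particular to the siDONSON arrays. The H2B medians were -0.55, -0.27, 0.27, 0.45 and 0.51, whereas those of the other histones were -1.68, -0.34, -0.62, 0.19 and -0.20. H2B genes are close copies, so their probes may share signal, and they are not independent.

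Interferon-stimulated effectors, the proteins through which cells resist viruses, lay higher on the miR-150-3p arrays for some members only. Of 43 listed genes 28 were measured, and 13 of the 15 that were not had counted probes in EBC-1 but at most 5 had on any siDONSON array. The median ratio was 0.70 in EBC-1, 0.32 in SK-MES-1 and 0.11, -0.14 and 0.18 on the siDONSON arrays. The difference had a median of 0.43, and of 0.29 without EBC-1. In 10 of 28 genes (35.7%) both miR-150-3p values lay above all siDONSON values, against 15.6% of all genes, and in 0 below. None (0) passed the threshold on 5 arrays, and 2 of 28, IFITM1 and MX1, passed on 8, against 1.18% of all genes.

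IFITM1, a membrane protein that blocks virus entry, had log2 ratios of 1.79 (EBC-1) and 1.82 (SK-MES-1), against 0.40, -0.34 and 0.06 on the siDONSON arrays. The squamous lines had nearly the same ratio although their control levels differed, with a log2 Cy3 signal of 11.4 for EBC-1 and 6.23 for SK-MES-1. SBC-3 controls lay at 11.7 to 11.9. The difference of IFITM1 was 1.76 (SE 0.26, limma adjusted p = 0.0982 on 5 arrays and 0.0301 on 8), and 1.04 with normexp background correction. MX1, a GTPase active against RNA viruses, had 2.03 and 1.80 against 0.52, -0.42 and 0.76. Its control channel was not well above background on siDONSON-1 and -3, and its limma adjusted p was 0.185 on 5 arrays and 0.0449 on 8.

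The IFIT genes, whose products bind foreign RNA, had their highest ratios in EBC-1. IFIT2 had 3.07 (EBC-1) and 0.52 (SK-MES-1) against -0.53, -0.67 and -0.60. IFIT3 had 2.60 and 0.83 against -0.40, 0.19 and 0.12. IFIT1 had 2.17 and 0.85 against 0.10, -0.14 and 0.19, but the edited A549 clones had 1.70, 1.64 and 1.47. For IFIT1 the edited arrays thus lay between both squamous lines. The control log2 Cy3 signal of IFIT1 was 11.99 in EBC-1, 8.88 in SK-MES-1 and 14.31 to 14.35 in SBC-3. After treatment its log2 Cy5 signal was 14.16, 9.72 and 14.17 to 14.53 in the same order. IFIT2 controls lay at 8.72, 6.77 and 10.27 to 10.47, and treated cells at 11.79, 7.29 and 9.597 to 9.935. The part of these starting levels in the ratios was not tested. ISG15, a ubiquitin-like protein, had 0.70 and 0.44 against -0.24, 0.00 and 0.48, and its groups overlapped. UBA7, the enzyme that activates ISG15, had 0.79 and 0.26 against 2.40, -0.14 and 1.32. PARP9 had 1.06, 0.10 and 1.04 on the siDONSON arrays. UBA7 and PARP9 were not above background in both channels throughout. Their SBC-3 controls were dim, with a log2 Cy3 signal of 5.11 to 5.64 for UBA7 and 5.53 to 6.01 for PARP9. IFI44L, above background in both channels on all 5 arrays, had 1.12, -0.18 and 0.66 on the siDONSON arrays. Effectors above 0 were thus not missing there.

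**Figure D4:**
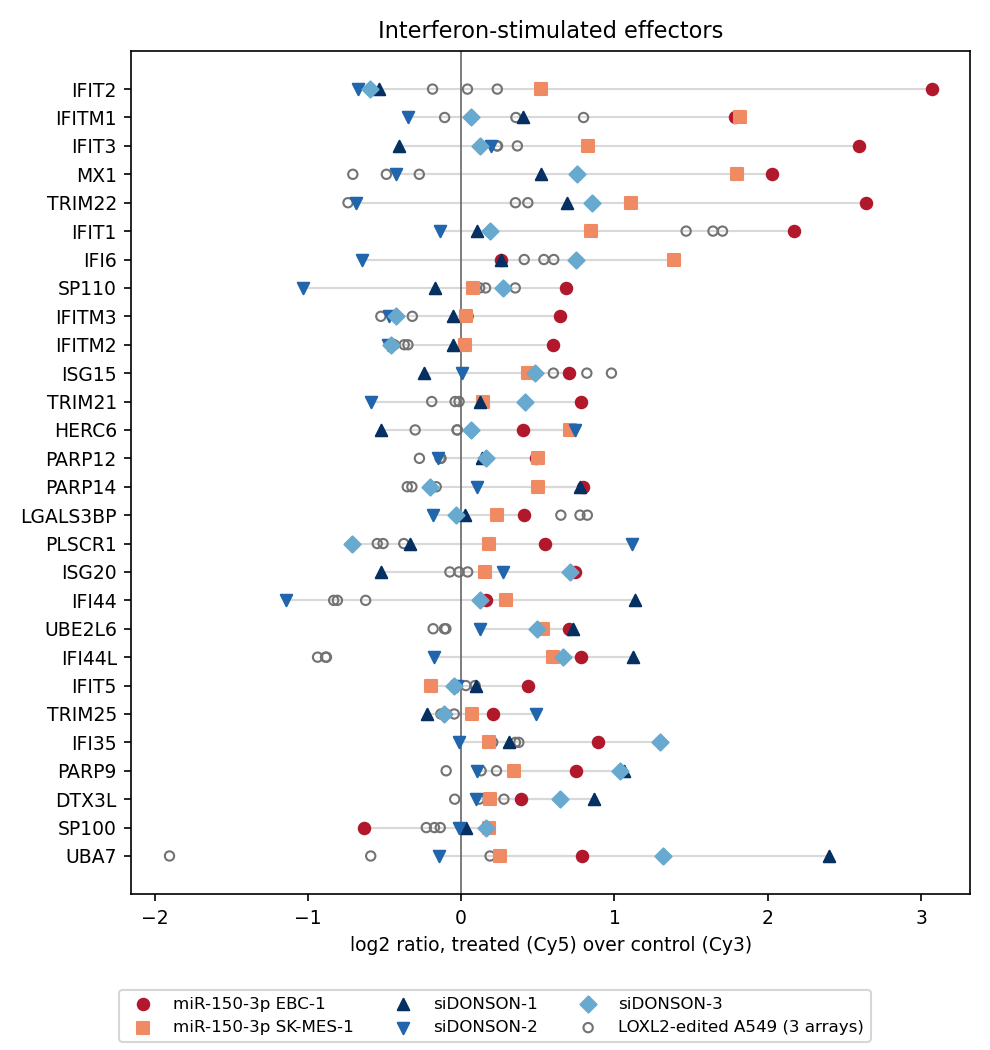
Log2 ratios (treated over control, x axis) of the 28 measured interferon-stimulated effectors (rows, ordered by difference) on each array; filled symbols are the 5 duplex arrays and open circles the LOXL2-edited arrays. The miR-150-3p symbols lie right of all siDONSON symbols for IFIT2, IFITM1, IFIT3, MX1, TRIM22 and IFIT1 at the top, and the symbols mix in the lower rows. For TRIM22 the squamous controls were dim, with a log2 Cy3 signal of 4.61 (EBC-1) and 3.65 (SK-MES-1).

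Promoters of 26 of 36 effectors with a window held the letters GAAANNGAAA on either strand, the core of the interferon-stimulated response element, against 4.38% of all genes with a window and 3.57% of all windows. Stretches are shown for effectors with large differences and, for contrast, for ISG15, whose groups overlapped. Capitals mark the matches, which run on the opposite strand in IFIT1 and IFIT3 and overlap each other in ISG15.
IFITM1, chr11:313988-314021, plus strand: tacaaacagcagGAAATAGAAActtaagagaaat
IFIT1, chr10:89392495-89392541, plus strand: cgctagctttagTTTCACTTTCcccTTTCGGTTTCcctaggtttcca
IFIT3, chr10:89327829-89327896, plus strand: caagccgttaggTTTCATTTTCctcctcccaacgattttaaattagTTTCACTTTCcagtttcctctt
ISG15, chr1:1013372-1013411, plus strand: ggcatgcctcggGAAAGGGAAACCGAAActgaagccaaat

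Genes chosen by this motif alone lay near the background. Over the 375 measured genes with a match the median difference was -0.01, with 19.2% below and 17.3% above without overlap, near the 17.8% and 15.6% of all genes.

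Other antiviral lists also had medians above 0. Double-stranded RNA sensors and signalling genes (13 of 23 measured) had a median difference of 0.40, with 0 below and 5 (38.5%) above, against 17.8% and 15.6% of all genes. IRF9, a subunit of the interferon-activated factor ISGF3, had 1.13 in both squamous lines against 0.53, 0.02 and 0.12, and it passed the threshold on 8 arrays (limma adjusted p = 0.044). STAT2, another subunit, had 1.31 and 0.36 against 0.09, -0.22 and -0.23. EBC-1 was the higher squamous line for STAT2. The LOXL2-edited arrays were also above 0, with 0.67, 0.93 and 0.72 for IRF9 and 0.38, 0.26 and 0.21 for STAT2. Without EBC-1 the median difference of the list was 0.11.

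MHC class I antigen presentation genes (16 of 17) had a median difference of 0.29, and of 0.18 without EBC-1, with 1 (6.25%) below and 8 (50%) above, against 17.8% and 15.6% of all genes. Next to CALR, members of this list with small p were ERAP1, the peptidase that trims antigenic peptides (0.76 and 0.64 against -0.17, -0.21 and -0.04), and PDIA3, a disulfide isomerase (0.32 and -0.03 against -0.66, -0.50 and -0.81). CALR and PDIA3 also serve general folding in the reticulum. NF-kB and inflammatory genes (16 of 26) had a median difference of 0.40, with 1 (6.25%) below and 5 (31.2%) above, read against the same shares of all genes, and of -0.05 without EBC-1. ICAM1, an adhesion molecule, had 2.69 and 0.67 against -0.59, -0.19 and -0.28. REL, an NF-kB subunit, had -0.72 and -0.12 against 0.59, 0.48 and 0.41 and was the 1 member below, called with all 8 arrays (limma adjusted p = 0.0456).

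Metabolic lists showed smaller medians. Cholesterol synthesis genes (22 of 24) had a median difference of 0.24, with 2 (9.09%) below and 9 (40.9%) above, against 17.8% and 15.6% of all genes. HMGCS1, which makes the precursor of mevalonate, had 0.89 and 0.96 against 0.09, -0.25 and -0.69 (limma adjusted p = 0.182 on 5 arrays and 0.036 on 8), and SREBF2, the factor that drives the pathway, had 0.37 and 0.36 against -0.11, -0.46 and -0.25. Both were alike in the squamous lines and higher there than on any siDONSON array. MVK, the mevalonate kinase gene, had -1.51 and -0.45 against 0.24, 0.19 and 0.06. Hypoxia and glycolysis genes (21 of 23) had a median difference of 0.17, with 2 (9.52%) below and 9 (42.9%) above, against the same shares, and of 0.43 without SK-MES-1. Of the glucose transporters, SLC2A1 had 0.71 and 0.04 against -0.67, -0.28 and -0.37. NDRG1, induced by hypoxia, had 0.03 in both squamous lines against 0.66, 1.04 and 1.59.

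The p53 targets (23 of 26) had a median difference of -0.10, with 6 (26.1%) below and 3 (13%) above, against 17.8% and 15.6% of all genes. CDKN1A, the cyclin-dependent kinase inhibitor p21, had 0.28 and -0.46 against 0.86, 1.22 and 0.46. Small RNA machinery (16 of 16), the proteins that process and load duplexes, had a median difference of 0.02, with 2 (12.5%) on each side, under both shares of all genes. AGO1 had -0.29 and -0.41 against 0.15, 0.12 and 0.15, and AGO4 had 0.58 and 0.44 against 0.04, -0.14 and 0.02. These Argonaute genes differed in opposite directions, and neither passed the threshold in either fit. Reference genes (15 of 15) had a median difference of -0.14, with 5 (33.3%) below, over the 17.8% of all genes, and 2 (13.3%) above, under the 15.6%. GAPDH was among those below, with -0.67 and -0.42 against -0.04, -0.04 and 0.08, which gives the size of difference seen in a gene often taken as constant.

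**Figure D5:**
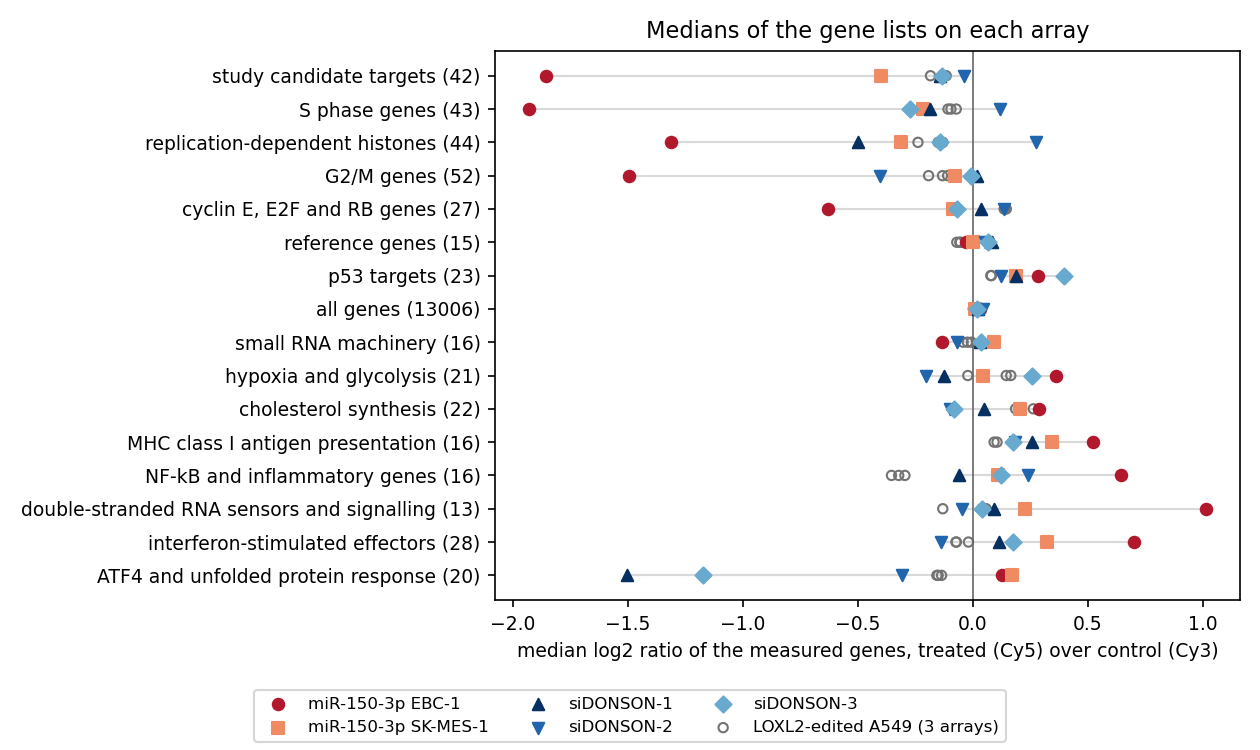
Median log2 ratio (treated over control, x axis) of each gene list (rows, with the number of measured genes) on each array, with all 13006 genes for comparison; filled symbols are the 5 duplex arrays and open circles the LOXL2-edited arrays. EBC-1 lies far left for candidates, S phase, G2/M and histone genes while SK-MES-1 stays near the siDONSON symbols, and for the ATF4 and unfolded protein response list the siDONSON-1 and siDONSON-3 symbols lie left of -1.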

How the data were processed

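RNA of treated and control cells was hybridized to 2-colour Agilent arrays. The authors deposited Feature Extraction 12.1.1.1 output, whose processed intensity values had been background-subtracted and dye-normalized, and a series table of log10 ratios equal to those of the arrays. Of 60901 non-control spots per array, 81 to 133 were marked as outliers and left out, and 0 were saturated. The 5 arrays had 41.1% to 46.4% of spots above background in Cy3 and 48.5% to 55.7% in Cy5. Their number limits the precision.

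Log2 ratios were computed from processed intensities, and probes of a gene were averaged. Of 58201 probes 31104 were named through RefSeq accessions. limma 3.58.1 in R 4.3.3 compared the groups, with Benjamini-Hochberg adjustment at 0.05, after a check on simulated data. In that check 200 genes were given a log2 change of 1, and 0 were called. With a change of 2 in 200 genes, 142 calls and 8 false calls were counted. A count of 0 called genes in a list therefore says little about differences near 1. Nothing in the labels says whether arrays are independent cultures, so p-values measure the spread between arrays.

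Named genes were DONSON, HELLS, the 10 called genes of largest difference per direction that did not overlap and were above background in both channels (filled by smallest p), up to 4 genes of smallest p per list (15 lists) and genes past 1 on all arrays. CDH15 and SLC15A3 are named as the only calls, and other genes were named after their values were seen. Members and lists were chosen with earlier results of these data known. Alternatives were another background correction, filters on probes and spots, median centring, the brightest probe, the series table, all 8 arrays, an intensity trend and leaving out each array. Normexp (offset 50) was run on median signals, since the files used here hold no mean signals. The software's own p-values and errors were not used for tests. A few genes of the lists are not reported here by name.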

Additional observations from a re-analysis of the deposited data

Results flagged for a closer look

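IFIT1 was above 1 on all 3 arrays of LOXL2-edited A549 cells, which are no part of the comparison of duplexes, with log2 ratios of 1.70, 1.64 and 1.47. The comparison of these clones with the miR-150-3p arrays was not tested. TNS4, with 1.08, 1.49 and 1.43, and ASNS, with -1.40, -1.55 and -1.32, were also past 1 in 1 direction on all 3. Outlying samples were not tested for, as the groups hold 2 and 3 arrays.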

How the results depend on the processing

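No paired analysis was possible because the labels of the miR-150-3p arrays carry no replicate number and the numbers of the siDONSON and A549-GE arrays name different siRNAs or clones. No genes (0) were called lower and 2 higher; keeping outlier-marked spots or using the deposited series table gave the same counts, and an intensity trend gave 0 and 3. Normexp gave 3 and 10, and all 8 arrays in 1 fit gave 215 and 154. Without the filter on dim probes, with both channels above background, with centring and with the brightest probe, 0 genes were called higher, and without that filter 3209 genes lay above without overlap. Leaving out 1 array gave 0 to 58 genes called lower and 0 to 36 higher, the highest counts being those without SK-MES-1. Genes without overlap then numbered 2999 to 4506 below and 2607 to 4103 above. Fits without 1 miR-150-3p array assume that the lone array varies as the siDONSON arrays do. With 1 array left out, list medians ranged from -1.69 (without SK-MES-1) to -0.31 (without EBC-1) for the study's candidates, -1.77 to -0.072 for S phase genes, -1.34 to 0.036 for G2/M genes, -0.64 to -0.18 for cyclin E, E2F and RB genes, and -1.24 to -0.14 for histones, in the same order. They ranged from 0.29 to 0.50 for interferon-stimulated effectors, 0.11 to 0.72 for double-stranded RNA sensors, 0.18 to 0.37 for MHC class I genes, -0.049 to 0.39 for NF-kB genes, -0.16 to 0.073 for p53 targets, 0.13 to 0.43 for hypoxia genes, -0.11 to 0.069 for small RNA machinery and -0.14 to -0.11 for reference genes, whose median was -0.086 with normexp. HELLS reversed, from -1.67 without SK-MES-1 to 0.058 without EBC-1. The other 74 of 75 named genes kept their direction under the alternatives run. Of 1045 values of named genes under alternatives, 969 kept direction and side of the threshold, 59 gained a call and 16 lost one. The causes were not tested. Dim control signals limit ratios such as those of CDH15 and SLC15A3.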
